A study of Drosophila melanogaster with 8 samples.

Results

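This account follows the genes that run the cell cycle and copy DNA in Drosophila melanogaster ovaries: cyclins, cyclin-dependent kinases and their regulators, the E2F factors, the proteins that license replication origins, the Mcm helicase, enzymes of DNA synthesis, and the activators and kinases of mitosis. The genes were chosen by name from a list of 38 symbols, and 36 of them were found among the 15682 gene rows of the deposited tables. Orc1 and Mcm3 could not be paired with a row and are not analysed here. RNA was measured by sequencing in ovaries of flies aged 4 to 6 days, in 8 libraries that form 4 groups of 2. The piwi mutant carried the alleles piwi1 and piwi2 (genotype piwi1/piwi2), which disrupt Piwi, the nuclear Argonaute protein that silences transposons, and its control carried the driver nos-GAL4-VP16. In the RnpS1 knockdown, RnpS1, a protein that works with the exon junction complex on spliced transcripts, was targeted by a double-stranded RNA under tj-GAL4, active in the somatic follicle cells, and by a short hairpin RNA under nos-GAL4-VP16, active in the germline (genotype dsRNA-RnpS1/tj-GAL4 together with shRNA-RnpS1/nos-GAL4-VP16). The control of the knockdown carried both drivers without these RNAs (tj-GAL4; nos-GAL4-VP16). The driver nos-GAL4-VP16 was thus shared by every group except the piwi mutant, and the piwi control was not stated to share the background of the mutant alleles. Transcripts of RnpS1 stood at 8.75 and 3.78 CPM (counts scaled to a library total of 1000000 gene counts) in the knockdown libraries and at 45.0 and 39.6 CPM in their controls, and for piwi the mutant libraries held 202 and 193 CPM, against 316 and 312 CPM in the control. In the knockdown, piwi was also lower, at 189 and 156 CPM against 414 and 337 CPM in its control.

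Cells pass through the cycle as cyclins bind and switch on their kinases: Cyclin E with Cdk2 starts DNA replication, and the mitotic cyclins with Cdk1 start division. Before replication, the origin recognition complex, Cdc6 and the Cdt1 homolog encoded by dup load the Mcm helicase on DNA. In the fly ovary, germline cells first divide in cysts, after which nurse cells and follicle cells switch to endocycles, rounds of replication without division, while the oocyte pauses in meiosis. Nurse cells also load the egg with transcripts of cell cycle genes for the rapid divisions of the early embryo.

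Gene counts summed to between 37426999 and 86692865 per library, and the 36 genes took between 1.11% and 1.45% of them. The lowest value of any of the genes was 31.9 CPM. The median over the 10434 genes that passed a filter on low counts was 30.9 CPM. The lowest count of any of the 36 genes was 1286, in another library, and all 36 were tested. Fold changes are on the log2 scale with a standard error (SE), from edgeR's quasi-likelihood test with TMM scaling, and a gene is said to rise or fall where the p-value, adjusted by Benjamini-Hochberg over all genes tested, was below 0.05. TMM is a scaling that sets the bulk of genes to no change, and with library totals alone the median of all genes moved from 0.0095 to 0.17 in the piwi comparison and from 0.0051 to 0.12 in the RnpS1 comparison. Over all genes 665 rose and 528 fell in the piwi mutant, or 814 and 200 with library totals alone. In the RnpS1 knockdown 92 rose and 77 fell, or 124 and 46 with library totals alone. Whether replicates came from separate animals is not given in the labels, and the p-values therefore reflect the spread among these libraries only, which may be technical. In RNA from whole ovaries, fewer cells of a type and less RNA per cell cannot be told apart.

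Levels per length, in CPM per kilobase of exon of a later annotation (RPKM), spread over more than an order of magnitude. The mitotic cyclins led: CycB had a mean of 1151 RPKM over all libraries and CycA, its partner in entry into mitosis, 649.5 RPKM. After them came RnrS, the small subunit of ribonucleotide reductase, with 282 RPKM, and polo, a mitotic kinase, with 220.5 RPKM. PCNA, the clamp that holds DNA polymerase on its template, followed with 202 RPKM. At the lower end stood subunits of the origin recognition complex, Orc5 with 34.3 RPKM, Orc4 with 32.7 RPKM and Orc2 with 32.3 RPKM. These neighbours at the lower end differed by less than the spread between the groups of any of them.

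**Figure D1:**
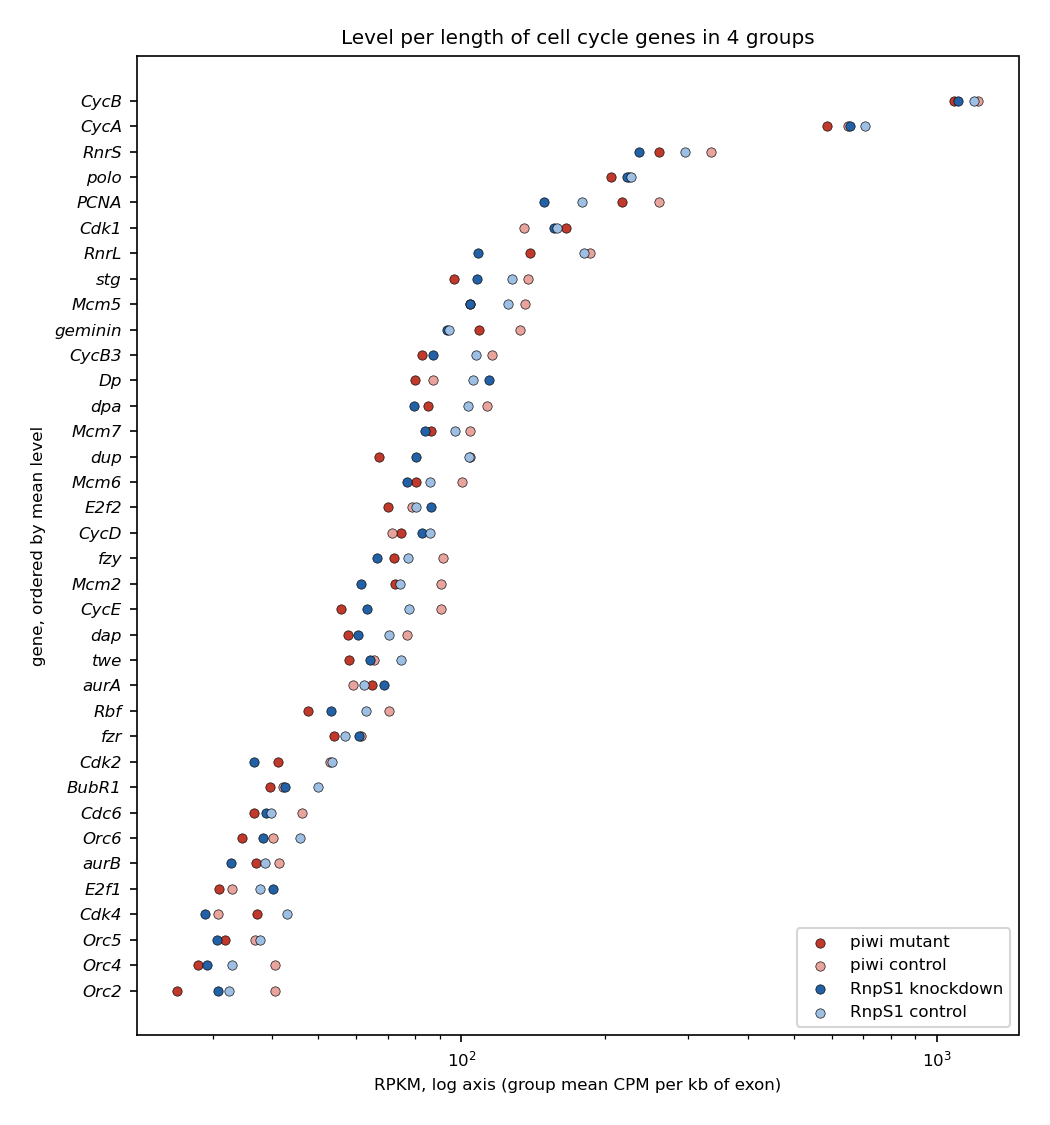
Level per length of the 36 genes, in RPKM on a log axis; each point is the mean of the 2 libraries of a group and genes are ordered by their mean over all libraries. CycB stands highest with a mean of 1151 RPKM and Orc2 lowest with 32.3 RPKM, and for most genes the piwi mutant and the RnpS1 knockdown lie to the left of their controls.

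In the piwi mutant 11 of the 36 genes fell and 0 rose, against 5.06% of all genes tested that fell and 6.37% that rose (11.4% in either direction). The genes that fell were CycE, CycB3, Cdk2, stg, dap, Rbf, Orc2, Orc4, dup, dpa and RnrL, which spread over cyclins, kinases, regulators, origin licensing, the helicase and nucleotide synthesis. Log2 fold changes ran from −0.86 for CycE to 0.13 for Cdk1, with a median of −0.44 against 0.0095 over all genes. They were negative for 34 of the 36, and for 32 with library totals alone, which gave a median of −0.28 beside 0.17 over all genes. In CPM, both mutant libraries lay below both controls for 25 genes, against 18.5% of all genes, and above both for 1 gene, Cdk4, against 45.6%. After TMM scaling both lay below for 31 genes, against 32.5% of all genes. At an unadjusted p below the same threshold 23 genes were lower and 0 higher, a count not taken over all genes. DESeq2 called 22, all lower, while over all genes it called 1175 lower and 1303 higher. The calls depended on single libraries, and over all genes calls also became fewer with any 1 library left out. The median log2 fold change was −0.44 without mutant replicate 1 and −0.40 without mutant replicate 2. Without control replicate 2 the median log2 fold change was −0.30 and without control replicate 1 it was −0.52. With library totals alone 5 of the 36 fell, beside 200 of all genes.

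Fewer of the genes passed in the RnpS1 knockdown, where 3 fell and 0 rose, against 0.738% of all genes tested that fell and 0.882% that rose (1.62% in either direction). These were Cdk2, Cdk4 and RnrL. Log2 fold changes ran from −0.85 for RnrL to 0.02 for aurA, with a median of −0.33 against 0.0051 over all genes. They were negative for 35 of the 36, and for 31 with library totals alone, which gave a median of −0.22 beside 0.12 over all genes. In CPM, both knockdown libraries lay below both controls for 15 genes, against 11.4% of all genes, and above both for 1 gene, Dp, against 34.2%. After TMM scaling both lay below for 25 genes, against 20.3% of all genes. At an unadjusted p below the same threshold 16 genes were lower and 0 higher, a count not taken over all genes. DESeq2 called 12, all lower, while over all genes it called 488 lower and 513 higher. The 3 falls above also depended on single libraries, as did calls over all genes. The median log2 fold change was −0.17 without RnpS1 control replicate 1 and −0.46 without RnpS1 control replicate 2.

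**Figure D2:**
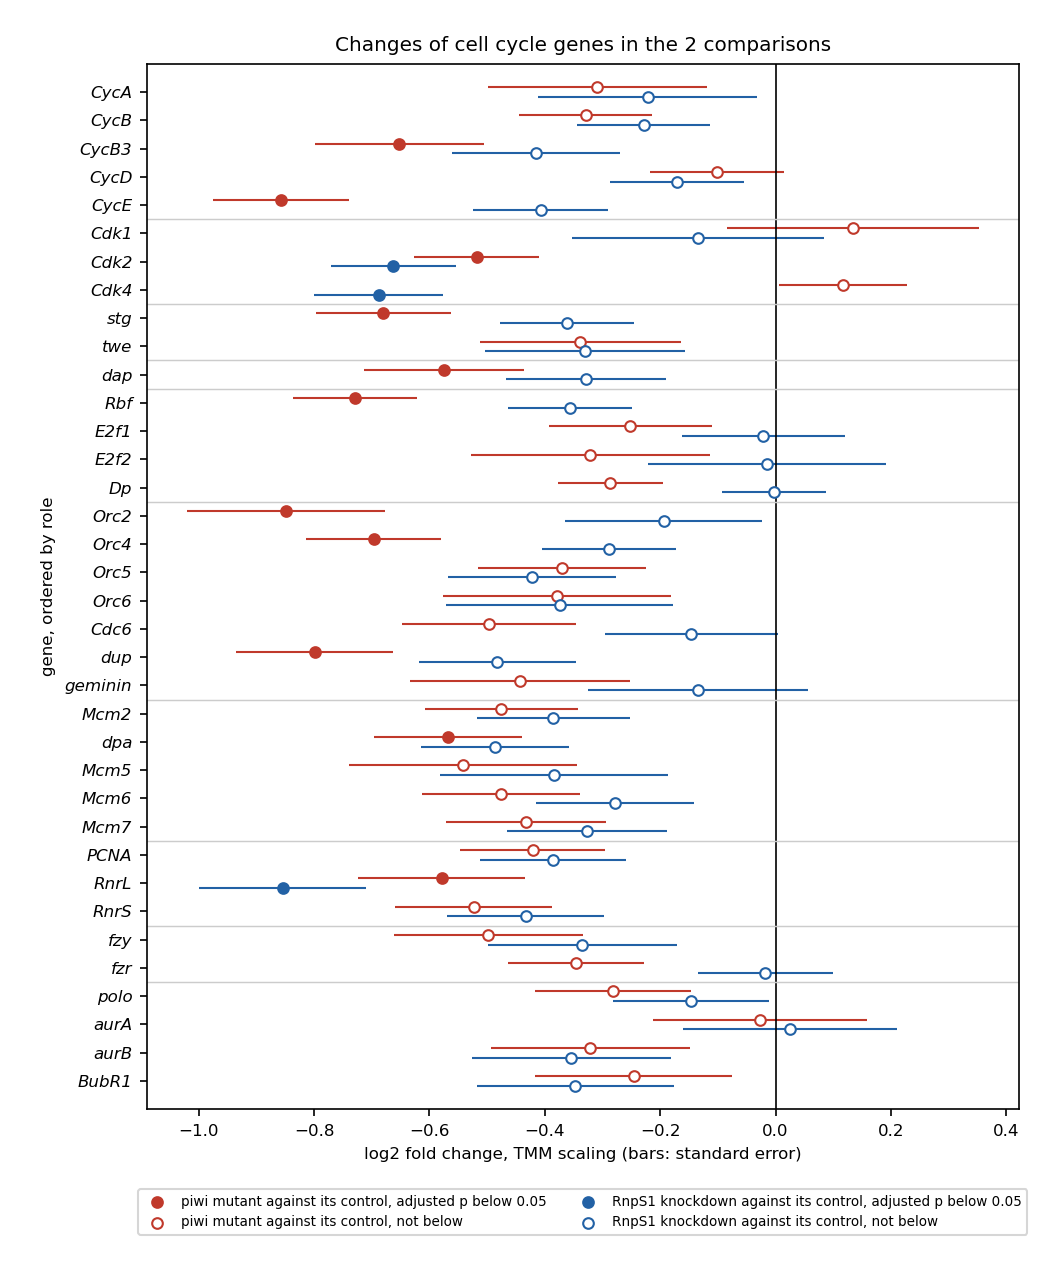
Log2 fold change of each gene, with a bar of 1 standard error on each side, in the piwi mutant (red) and the RnpS1 knockdown (blue), each against its own control; filled points have an adjusted p below 0.05. In the piwi mutant 34 of 36 points lie below 0 and in the knockdown 35 of 36 (32 and 31 with library totals alone).

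Among the cyclins, CycE, the partner of Cdk2 at the start of replication, held 289 and 276 CPM in the mutant libraries, 437 and 480 CPM in its control, 297 and 343 CPM in the RnpS1 knockdown and 412 and 373 CPM in the control of that. Both mutant libraries lay far below both controls, and both knockdown libraries below theirs. CycE fell in the mutant by 0.86 on the log2 scale (SE 0.118, adjusted p = 0.0139), the most negative of the 36, and in the knockdown the value was −0.41 (SE 0.117, adjusted p = 0.139). CycB3, a cyclin of mitosis and of meiosis in the oocyte, stood at 260 and 215 CPM in the mutant, 321 and 348 CPM in its control, 233 and 269 CPM in the knockdown and 336 and 283 CPM in its control. Here too the groups did not overlap in either comparison. Its fall in the mutant was −0.65 (SE 0.146, adjusted p = 0.0376), and the value in the knockdown was −0.42 (SE 0.145, adjusted p = 0.204). The abundant CycA and CycB did not pass: CycA was at −0.31 in the mutant and −0.22 in the knockdown, and CycB at −0.33 and −0.23. CycD, which with Cdk4 promotes growth, was at −0.10 in the mutant, a sign that turned to 0.06 with library totals alone, and at −0.17 in the knockdown.

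Of the 3 kinases, Cdk2 fell in both comparisons and Cdk4 in the knockdown. Cdk2 stood at 96.5 and 92.9 CPM in the mutant and 119 and 124 CPM in its control. In the knockdown it stood at 82.9 and 85.3 CPM, and in the control of that at 135 and 111 CPM. It was lower in both libraries of each condition than in both controls, and it fell in the mutant by 0.52 on the log2 scale (SE 0.108, adjusted p = 0.0326) and in the knockdown by 0.66 (SE 0.108, adjusted p = 0.0423). Cdk4, the partner of CycD, stood at 89.2 and 94.1 CPM in the mutant, above the 82.7 and 68.8 CPM of its control. In the knockdown it stood at 73.1 and 69.3 CPM, below the 102 and 109 CPM of its control. Cdk4 fell in the knockdown with −0.69 (SE 0.111, adjusted p = 0.0403), and its value in the mutant was 0.12 (SE 0.111, adjusted p = 0.501). For Cdk1, the mitotic kinase, the values were 0.13 (SE 0.218) in the mutant and −0.14 (SE 0.218) in the knockdown, both smaller than their error.

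Of the Cdc25 phosphatases, which switch on Cdk1, stg serves mitotic divisions and twe meiosis. The level of stg was 306 and 285 CPM in the mutant, 417 and 430 CPM in its control, 307 and 352 CPM in the knockdown and 415 and 368 CPM in its control. The groups did not overlap in either comparison, and the gap was wider in the piwi comparison. It fell in the mutant with −0.68 (SE 0.117, adjusted p = 0.0207), and the value in the knockdown was −0.36 (SE 0.116, adjusted p = 0.175). Its relative twe was at −0.34 in the mutant (adjusted p = 0.224) and −0.33 in the knockdown (adjusted p = 0.366). The gene dap encodes an inhibitor of the Cyclin E and Cdk2 complex. It stood at 154 and 138 CPM in the mutant, 175 and 214 CPM in its control, 157 and 149 CPM in the knockdown and 195 and 161 CPM in the control of that. All libraries of each condition lay below those of its control, narrowly so in the knockdown. dap fell in the mutant by 0.57 on the log2 scale (SE 0.139, adjusted p = 0.0437), and its value in the knockdown was −0.33 (adjusted p = 0.273). This inhibitor and both subunits of the complex it blocks were thus all among the genes that fell in the mutant.

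Rbf, the retinoblastoma homolog that holds E2F factors in check, stood at 169 and 175 CPM in the mutant and 245 and 266 CPM in its control. In the knockdown it stood at 180 and 206 CPM, and in its control at 228 and 228 CPM. Both conditions lay below their controls without overlap. Rbf fell in the mutant with −0.73 (SE 0.108, adjusted p = 0.0161), and the value in the knockdown was −0.36 (SE 0.107, adjusted p = 0.156). The factors it binds did not pass in the mutant: the activator E2f1 was at −0.25, the repressor E2f2 at −0.32 and their common partner Dp at −0.29 (adjusted p = 0.0805). In the knockdown the same factors were close to 0, at −0.02, −0.01 and −0.0029, and with library totals alone they turned positive, at 0.09, 0.10 and 0.11. Dp was at 359 and 371 CPM in the knockdown and at 334 and 342 CPM in its control, the one gene of the set that was higher in both knockdown libraries in CPM.

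Origin licensing held 3 genes that fell in the mutant, of 7 found. Orc2, a subunit of the origin recognition complex, was at 53.1 and 47.4 CPM in the mutant against 72.9 and 89.3 CPM in its control. In the knockdown it was at 64.0 and 59.0 CPM, inside the range of its control at 75.2 and 54.6 CPM. It fell in the mutant with −0.85 (SE 0.172, adjusted p = 0.0305) and was at −0.19 (adjusted p = 0.607) in the knockdown. Orc4, another subunit, was at 47.2 and 43.0 CPM in the mutant against 59.6 and 71.4 CPM, and at 49.1 and 45.4 CPM in the knockdown against 54.1 and 52.3 CPM. Neither comparison had an overlap, and the fall in the mutant was −0.70 (SE 0.117, adjusted p = 0.0203), beside −0.29 (adjusted p = 0.258) in the knockdown. dup, the Cdt1 homolog, was at 209 and 212 CPM in the mutant against 301 and 355 CPM, and at 227 and 278 CPM in the knockdown against 333 and 318 CPM. The mutant libraries nearly coincided while those of the knockdown lay apart, and all were below their controls. dup fell in the mutant with −0.80 (SE 0.136, adjusted p = 0.0206) and was at −0.48 (SE 0.136, adjusted p = 0.134) in the knockdown.

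The licensing genes that did not pass in the mutant were Cdc6, which loads the helicase, at −0.50 (adjusted p = 0.0740), geminin, the inhibitor of Cdt1, at −0.44, Orc6 at −0.38 and Orc5 at −0.37. In the knockdown they lay between −0.13 for geminin and −0.42 for Orc5. The 5 Mcm genes found had log2 fold changes within a narrow range, from −0.43 for Mcm7 to −0.57 for dpa in the mutant and from −0.28 for Mcm6 to −0.49 for dpa in the knockdown. dpa, which encodes Mcm4, was at 262 and 261 CPM in the mutant, 321 and 375 CPM in its control, 250 and 239 CPM in the knockdown and 349 and 284 CPM in the control of that. It had no overlap in either comparison, and it fell in the mutant with −0.57 (SE 0.128, adjusted p = 0.0383), beside −0.49 (SE 0.128, adjusted p = 0.116) in the knockdown. The other Mcm genes, Mcm2, Mcm5, Mcm6 and Mcm7, had adjusted p-values between 0.0609 and 0.113 in the mutant.

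In nucleotide and DNA synthesis, RnrL, the large subunit of ribonucleotide reductase, was at 371 and 347 CPM in the mutant and 433 and 526 CPM in its control. In the knockdown it was at 302 and 257 CPM, and in the control of that at 511 and 422 CPM. The knockdown libraries were the lowest of all, and the groups did not overlap in either comparison. RnrL fell in the mutant with −0.58 (SE 0.145, adjusted p = 0.0476) and in the knockdown with −0.85 (SE 0.145, adjusted p = 0.0454). RnrS, the small subunit, was at −0.52 (SE 0.136, adjusted p = 0.0519) in the mutant and −0.43 (SE 0.136, adjusted p = 0.166) in the knockdown. PCNA was at −0.42 (adjusted p = 0.0724) and −0.39 (adjusted p = 0.180).

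Neither the activators of the anaphase-promoting complex nor the mitotic kinases and checkpoint gene held a gene that passed in either comparison. The complex is the ubiquitin ligase that destroys mitotic cyclins, and its activators are fzy, which acts in mitosis, and fzr, which acts in G1 and keeps mitotic cyclins low in endocycles. fzr was at 151 and 151 CPM in the mutant, 164 and 180 CPM in its control, 173 and 168 CPM in the knockdown and 175 and 143 CPM in the control of that. The mutant lay below its control without overlap and the knockdown lay within the range of its own. The values of fzr were −0.35 (adjusted p = 0.0953) and −0.02 (0.10 with library totals alone), and those of fzy −0.50 (adjusted p = 0.0884) and −0.33. polo, the most abundant of the mitotic kinases, was at 656 and 575 CPM in the mutant, 620 and 721 CPM in its control, 706 and 623 CPM in the knockdown and 734 and 622 CPM in its control. Its groups overlapped in both comparisons, with values of −0.28 and −0.15. aurA, a centrosome kinase, was near 0 in both (−0.03 and 0.02, the first turning to 0.13 with library totals alone). aurB, the kinase of the chromosomal passenger complex, was at −0.32 and −0.35, and BubR1, of the spindle checkpoint, at −0.25 and −0.35.

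**Figure D3:**
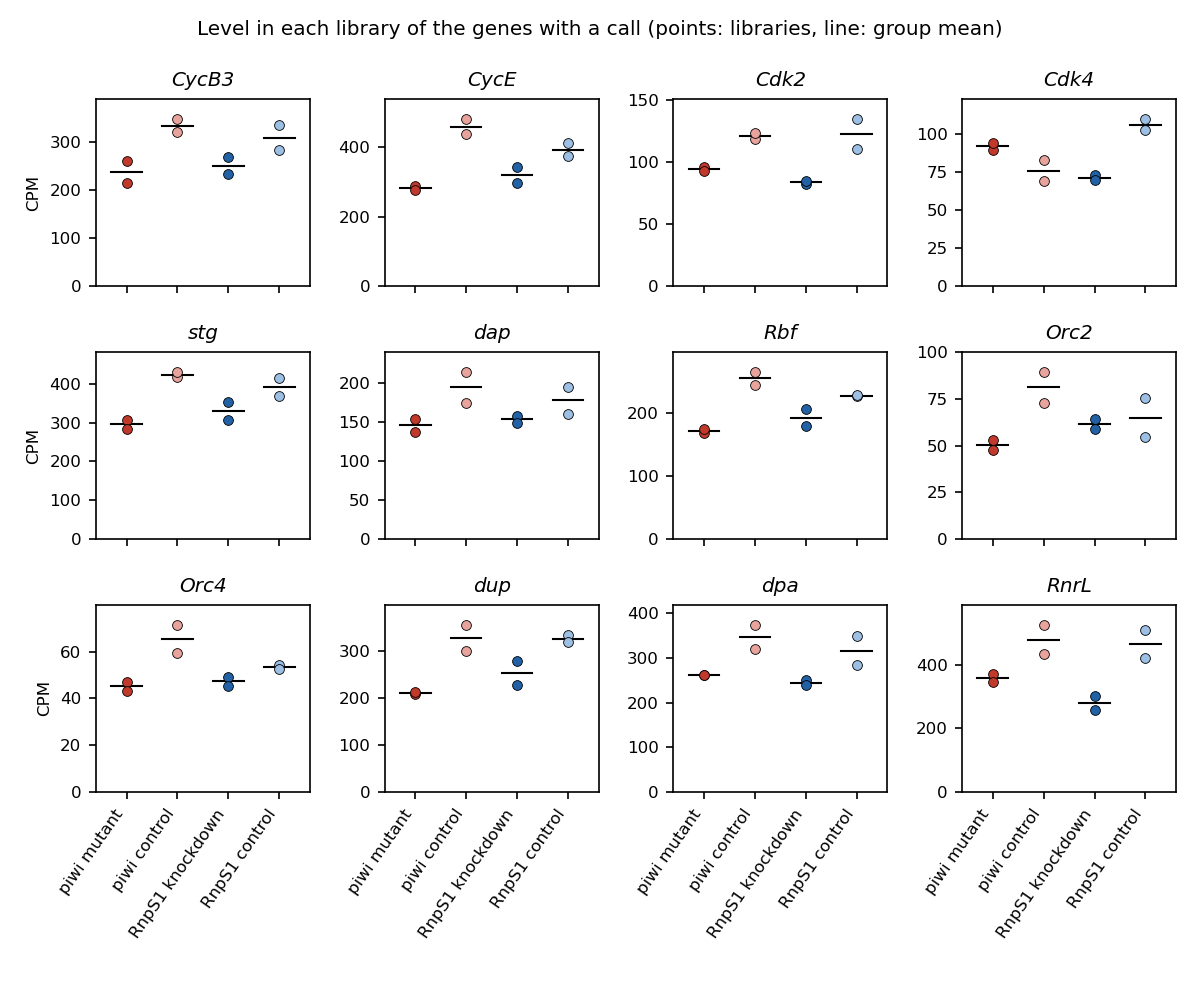
CPM in each library (points) and the group mean (line) of the 12 genes that fell in at least 1 comparison, each panel with its own axis starting at 0. For 11 of them, all but Cdk4, both piwi mutant libraries lie below both controls, whereas Cdk4 lies below its control in the RnpS1 knockdown, at 73.1 and 69.3 CPM against 102 and 109 CPM.

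The piwi and RnpS1 comparisons share no library, and their values are set side by side here. Both came from the same fit with a shared estimate of the spread, so their calls are not independent. Log2 fold changes were negative in both for 33 of the 36 genes, and 28 were more negative in the mutant and 8 less so (11 with library totals alone). This lean rested on single libraries: the median difference, knockdown minus mutant, was 0.12, but 0.018 without piwi control replicate 2 and −0.032 without RnpS1 control replicate 2. It was 0.078 without piwi mutant replicate 2, 0.074 without knockdown replicate 1, 0.20 without piwi control replicate 1 and 0.23 without RnpS1 control replicate 1. Across the 36 genes the fold changes had a Spearman correlation of 0.48, a description over genes that share libraries and are not independent. Cdk2 and RnrL fell in both, but their calls in the knockdown were lost in a fit of the RnpS1 groups alone. With edgeR's quasi-likelihood test of the difference between the changes, 0 of the 36 passed, against 0.652% of all genes. At an unadjusted p below the threshold 5 did (1 more negative in the knockdown and 4 in the mutant), a count not taken over all genes. DESeq2 called 1, Cdk4, beside 789 of all genes. The difference for Cdk4, knockdown minus mutant, was −0.80 (SE 0.157, adjusted p = 0.0830), and −0.83 with an adjusted p of 0.00116 in DESeq2. CycE, with 0.45 (SE 0.165, adjusted p = 0.266), and Orc2, with 0.66 (SE 0.241, adjusted p = 0.268), lay the other way without passing.

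The controls differ in genotype, and the levels of the genes in them were compared as a baseline. With edgeR's quasi-likelihood test 0 of the 36 differed between the RnpS1 control and the piwi control, against 3.85% of all genes. At an unadjusted p below the threshold 5 did, a count not taken over all genes. DESeq2 called 3, PCNA, Cdk4 and Dp, beside 1456 of all genes. PCNA was at 215 and 169 CPM in the RnpS1 control and 275 and 283 CPM in the piwi control, a log2 difference of −0.56 (SE 0.126, adjusted p = 0.0603). For Cdk4, with 0.46 (SE 0.111, adjusted p = 0.0700), the RnpS1 control was the higher one. In CPM the levels of Cdk4 in the piwi mutant, at 89.2 and 94.1, lay between those of the controls. After TMM scaling they were 84.1 and 89.3, overlapping the piwi control at 87.7 and 72.3. The knockdown, at 73.1 and 69.3 CPM, lay within the piwi control range of 82.7 and 68.8 CPM. After TMM scaling the knockdown lay below that control, at 69.5 and 67.4.

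The genes also varied together from library to library. As a summary, the median over the 36 genes of each gene's log2 level relative to its own mean over all libraries, after TMM scaling, was −0.15 and −0.26 in the piwi mutant and 0.14 and 0.39 in its control. It was −0.13 and −0.19 in the knockdown and 0.26 and 0.011 in the control of that. Control libraries of a group thus stood further apart than the libraries of the mutant or of the knockdown. In the piwi control 34 of the 36 genes were higher in replicate 2, and in the RnpS1 control 32 were higher in replicate 1. The same median over all 10434 genes lay between −0.033 and 0.013 in every library.

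**Figure D4:**
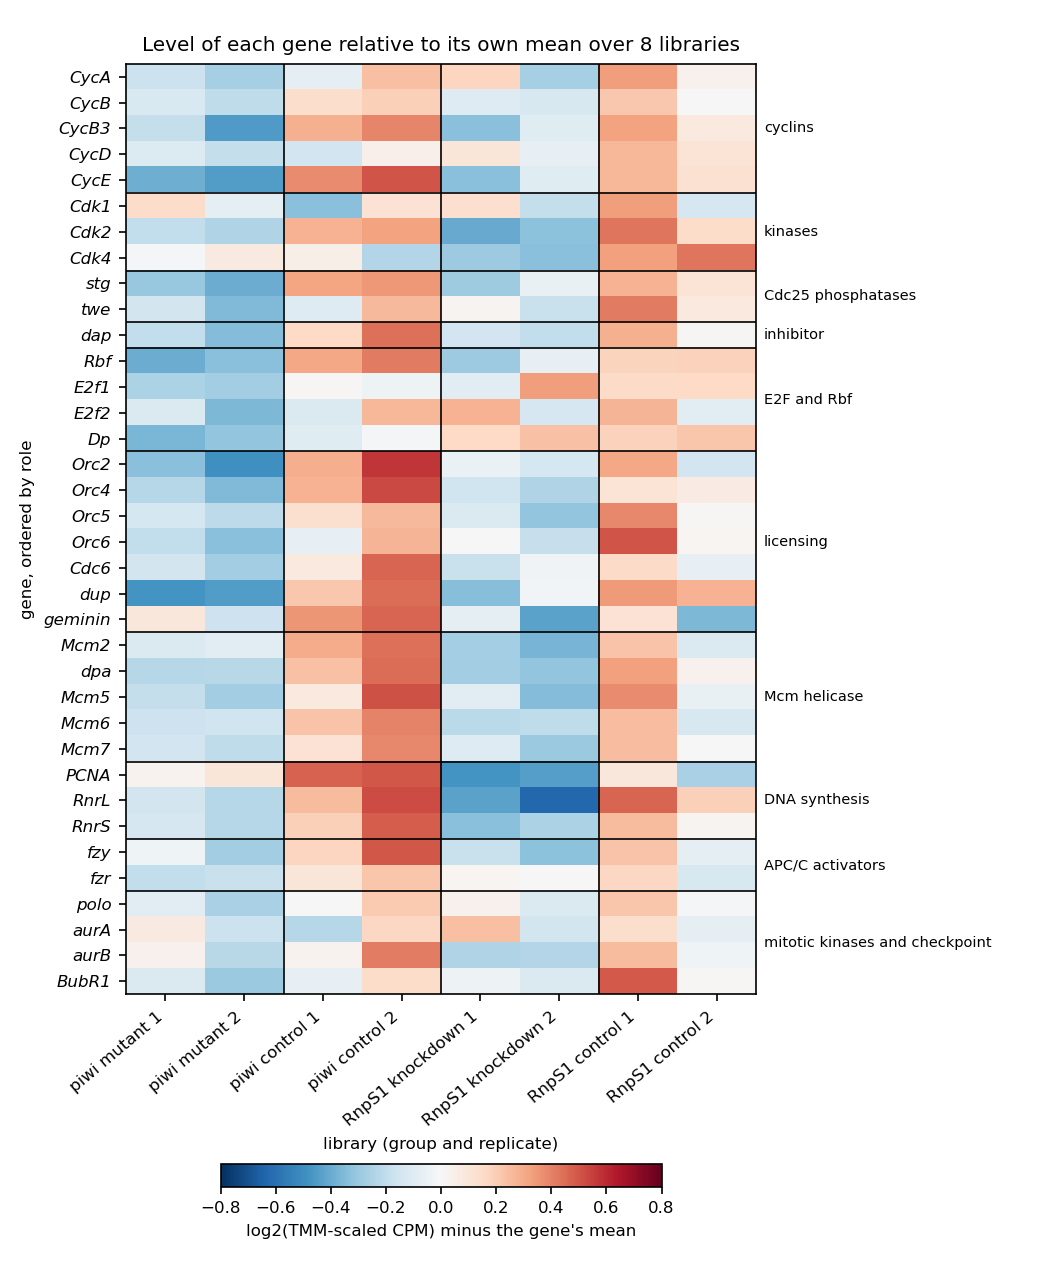
Log2 level (TMM-scaled CPM) of each of the 36 genes in each library, minus the gene's mean over the 8 libraries; red is above and blue below that mean, and lines separate roles and groups. The columns of the piwi mutant and the RnpS1 knockdown are mostly blue, with medians of −0.15, −0.26, −0.13 and −0.19, and those of the controls are mostly red except RnpS1 control replicate 2, whose median was 0.011.

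Markers of other cells also differed between libraries. Genes of the eggshell, made by late follicle cells (14 of 14 matched), summed to 784 and 2091 CPM in the mutant libraries, 11765 and 8712 CPM in its control, 4337 and 15529 CPM in the knockdown and 10365 and 23295 CPM in the control of that. In 4 of 4 groups the library with less eggshell RNA had the higher median level of the cell cycle genes, with 27, 34, 23 and 32 of the 36 genes higher in it, a pattern seen after the values were known. Between groups, the piwi mutant had the least eggshell RNA and also low levels of the cell cycle genes, with medians of −0.15 and −0.26. The knockdown had low levels too, with medians of −0.13 and −0.19, at 4337 and 15529 CPM of eggshell RNA. Germline markers (4 of 6 matched) summed to 2168 and 2364 CPM in the mutant and 3055 and 2766 CPM in its control, and to between 2954 and 3322 CPM in the RnpS1 groups. Most of this sum was osk, which fell in the mutant (1348 and 1430 CPM against 2153 and 1916 CPM, adjusted p = 0.0168). bam, a gene of early dividing germline cysts, rose instead (158 and 152 CPM against 48.5 and 74.0 CPM, adjusted p = 0.0435), and aub was at −0.07. General follicle cell markers (6 of 7) summed to 2806 and 3163 CPM against 6427 and 4522 CPM in the piwi comparison, and to 1309 and 5208 CPM against 5323 and 8173 CPM in the RnpS1 comparison. These sums were mostly the yolk protein genes Yp1, Yp2 and Yp3. Of the 6 matched, 5 had negative log2 fold changes in both comparisons, namely the yolk protein genes, tj and slbo, and 0 passed. tj was at 25 and 31 CPM in the mutant against 72 and 39 CPM. In the knockdown tj was at 15 and 46 CPM, overlapping its control at 40 and 72 CPM. Fas3 lay the other way without passing, at 107 and 105 CPM in the mutant against 57.1 and 34.0 CPM. In the knockdown Fas3 was at 123 and 70.7 CPM against 38.4 and 37.0 CPM. Muscle markers (13 of 14) summed to 2082 and 3514 CPM in the mutant against 952 and 588 CPM, and fat body markers (8 of 8) to 330 and 966 CPM against 67.9 and 52.5 CPM. In the mutant all 13 muscle and all 8 fat body markers had positive log2 fold changes, of which 1 and 2 rose, and all 14 eggshell genes had negative ones, of which 3 fell. All 14 eggshell genes were negative in the knockdown too, with a median of −0.92 (−3.7 in the mutant), and 0 passed. There, 7 muscle markers were positive and 6 negative, and 3 fat body markers were positive and 5 negative. In the RnpS1 groups the muscle and fat body lists stood at 597 to 1442 CPM and 79.9 to 147 CPM. Haemocyte markers (8 of 8) summed to 468 and 762 CPM in the mutant and 431 and 166 CPM in its control, where He was at 0, and to between 78.3 and 389 CPM in the RnpS1 groups. In the mutant 6 of the 8 had positive log2 fold changes and 3 rose: Hml (91.4 and 143 CPM against 6.22 and 1.63 CPM), NimC1 and Pxn. vkg and Col4a1, which made up most of the sum in the controls, were at −0.38 and −0.30. Gut markers (7 of 7) summed to between 0.330 and 208 CPM over all libraries, the highest in RnpS1 control replicate 1. The part of these cells in the lower levels of the cell cycle genes was not tested.

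**Figure D5:**
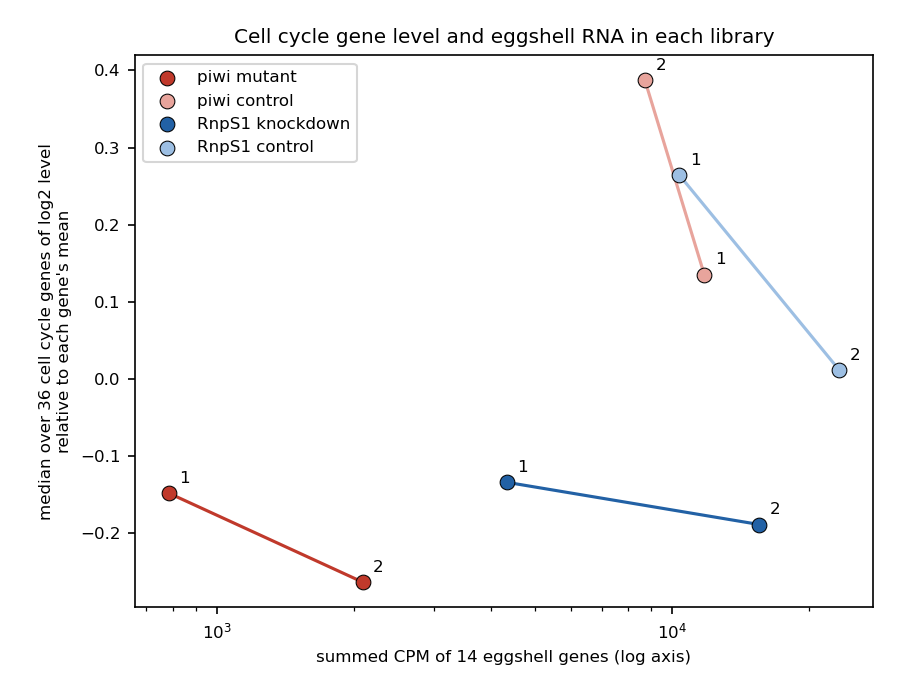
Median log2 level of the 36 genes relative to each gene's mean (vertical axis) against the summed CPM of 14 eggshell genes (horizontal log axis) in each library; lines join replicates 1 and 2 of a group. Within each of the 4 groups the line descends to the right, and the piwi mutant libraries stand lowest in eggshell RNA, at 784 and 2091 CPM.

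A wider list of other cell cycle genes, 71 of 74 matched, had a median log2 fold change of −0.29 in the piwi mutant, where 10 fell and 0 rose and 57 values were negative. At 10 of 71 its share of falls lay above the 5.06% of all genes. Of its 26 replication genes 7 fell: Rif1, a factor of replication timing (−0.93, SE 0.125, adjusted p = 0.0138), Cdc45, a part of the active helicase (−0.68), the primase subunit Prim2 (−0.65), the deoxynucleoside kinase dnk (−0.63), the DNA polymerase alpha subunit PolA2 (−0.59), the replication factor C subunit Gnf1 (−0.56) and the DNA polymerase epsilon subunit PolE1 (−0.53). Of 17 genes of G1, S phase and kinase control 2 fell, among them ago, part of a ubiquitin ligase that targets Cyclin E (−0.55, SE 0.118, adjusted p = 0.0346), and of 28 genes of mitosis and meiosis 1 fell. In the RnpS1 knockdown the list had a median of −0.25 and 60 negative values, and 2 of 71 genes fell, against 0.738% of all genes: CycG (−0.64, SE 0.112, adjusted p = 0.0477) and Myc, a transcription factor that promotes growth and endocycles (−0.65, SE 0.114, adjusted p = 0.0492). The calls in this list depended on single libraries in both comparisons, as did calls over all genes. DESeq2 called 25 lower and 0 higher in the mutant, where over all genes it called 1175 lower and 1303 higher. For the knockdown it called 16 lower and 1 higher, where over all genes it called 488 lower and 513 higher. With library totals alone 1 and 0 of the list fell, where over all genes 200 and 46 fell. Rif1 was at −0.55 in the knockdown (adjusted p = 0.0851), and ago at 0.03.

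Features that the choice of genes did not use showed little order with the changes. The longest intron of a gene, taken from a later annotation, ran from 0 bases in Mcm6 and CycB3 to 18665 in E2f1, with 8490 in CycE, and its Spearman correlation with the log2 fold change across the 36 genes was 0.18 in the mutant and 0.19 in the knockdown. The correlation with the mean level was −0.14 and −0.12, and with exon length −0.14 and −0.06. In that annotation, 0 of the 36 genes shared exon sequence with another gene on the same strand and 15 did on the opposite strand. Of the genes that fell in the mutant, these were CycE, Cdk2, Orc2, Orc4 and dup. The libraries were strand-specific per the labels, and the name of the count tables includes the word reverse, which may refer to counting on that strand. The setting itself is not stated, so reads of a partner on the other strand may be part of these values.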

How the data were processed

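The authors deposited raw read counts per gene for each library, without normalization and not pooled over replicates. The tools named, per the submitters' processing notes, are HTSeq 0.5.3p9, TopHat2 2.0.9, DESeq and CASAVA (1.8.2 and 1.8), and the builds BDGP5 and dm3; per the labels, ribosomal RNA was depleted and libraries kept strand. Rows that name no gene were left out of library sizes. Reads that matched no counted feature were 1.91% to 10.7% and ambiguous ones 1.19% to 1.63%. Reads aligned to several places were 43.2% to 66.0%, as a share of all these entries, which may hold a read more than once. Deposited counts of transposon families were not used here. Symbols, exon lengths and introns came from BDGP6 (Ensembl release 115), which named 15002 of the 15682 rows; since that build is not the authors', no coordinates are given.

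The edgeR 4.0.16 (R 4.3.3) quasi-likelihood fit took all 8 libraries with a term per group, filterByExpr and TMM factors of 0.943 to 1.06. The contrasts mutant against control, knockdown against control, the difference between those and control against control, were tested with Benjamini-Hochberg adjustment over 10434 genes and a threshold of 0.05. Common dispersion was 0.104, with 4 residual and 3.03 prior degrees of freedom, and standard errors were taken from the F statistic. With 2 libraries against 2, no exact permutation p below 0.333 is possible, and such tests were not used. The steps were tested on simulated data. Alternatives were other scalings, DESeq2 1.42.0, no filter, separate fits, a replicate block and each library left out.

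The genes and lists were chosen with earlier results of these data known. Genes that passed were to be given in every library, as was the most abundant gene of a role without one, and the rest by ranges; of other cell cycle genes, at most the 8 with the largest change that passed in a comparison were named, and marker lists were given as sums. Some single markers that passed, dominated a sum or lay against their list were named after their values were seen. The remaining follicle cell markers were also named then. Other markers that passed, among muscle, fat body and eggshell genes, were only counted.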

Additional observations from a re-analysis of the deposited data

How the results depend on the processing

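The number of calls depended on the choice of test and of libraries. Of the 36 cell cycle genes, the 11 calls in the piwi mutant became 22 with DESeq2, 5 with library totals alone, 6 with the replicate block and 0 to 12 with one library left out, and the 3 calls in the RnpS1 knockdown became 12 with DESeq2, 0 with library totals alone, in a fit of those groups alone or with the block, and 0 to 1 with one library left out. RLE factors and no filter on low counts left both counts the same. The 0 calls for the difference and for the controls became 1 and 3 with DESeq2 and 0 under every other setting run. In the piwi mutant the calls lost under the block were CycB3, Cdk2, dap, dpa and RnrL, and with library totals alone these and Orc2. In the knockdown all 3, Cdk2, Cdk4 and RnrL, were lost under either setting. Where a left-out library leaves an arm with 1 library, that one is assumed to vary like the rest.

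Over all genes, the 1193 calls in the piwi mutant became 2478 with DESeq2, 659 with the block and 27 to 1138 with one library left out. The 169 in the knockdown became 1001, 64 and 0 to 139, with 254 without the filter and 5 in a fit of those groups alone. The 68 calls for the difference became 789 with DESeq2, 120 without the filter and 12 to 41 with one library left out. The 402 calls between the controls became 1456 with DESeq2, 211 with the block, 135 in a fit of those groups alone and 44 to 355 with one library left out. The replicate numbers share no stated animal or batch, and deviations of same-numbered libraries correlated at −0.25 in the piwi comparison and 0.30 in the RnpS1 comparison, so they were not taken as pairs. Crossing the numbers, an alternative chosen after seeing the data, gave 22 of the 36 genes and 2698 over all genes in the piwi comparison.

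The values whose sign turned had not passed in the comparison concerned. With library totals alone these were, in the piwi mutant, CycD (0.058) and aurA (0.13), and in the knockdown E2f1 (0.092), E2f2 (0.10), Dp (0.11) and fzr (0.10). aurA was also at 0.0103 in a fit of the piwi groups alone and at 0.0167 with crossed numbers. With one library left out, values in the piwi mutant ran from −0.18 to 0.0059 for CycD, −0.057 to 0.38 for Cdk1, −0.0097 to 0.28 for Cdk4 and −0.19 to 0.19 for aurA. In the knockdown they ran from −0.36 to 0.11 for Cdk1, −0.25 to 0.17 for E2f1, −0.24 to 0.18 for E2f2, −0.041 to 0.032 for Dp, −0.41 to 0.044 for Orc2, −0.36 to 0.11 for geminin, −0.16 to 0.13 for fzr and −0.19 to 0.21 for aurA. The cause was not tested. Each of the 36 genes had at least 1286 counts in every library, and each group had 2 libraries.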
